A study of Mus musculus with 48 samples.

Results

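The injured tissue at 12 h after permanent middle cerebral artery occlusion (MCAO) was compared with the injured tissue at 3 h, over all genes. The comparison took the 10 libraries labelled MCAO_12h (replicates A to E) and MCAO_3h (replicates A to E) out of 48 in the series, 5 at each time. The 8 sham libraries of the same times (Sham_12h and Sham_3h, 4 each) were used to see what the same hours did without the occlusion. The 4 Control libraries, which the paper describes as intact cortical tissue, gave a further reference level. All came from C57Black/6 male mice that were 3 months old. In the MCAO mice the artery was coagulated and cut for good. The shams went through the same surgery under isoflurane without the coagulation. The sample labels call the tissue injured cortex together with spared tissue around it, and the design of the series calls it forebrain hemispheres, so how much of each sample was lesion is not known. In bulk tissue, fewer cells of a type and less RNA per cell cannot be told apart. The labels do not tie a library to a mouse or give the hour of collection. The p-values measure the spread between libraries within groups, estimated over all 48 libraries of the series and not over these alone.

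Ischemia drives neurons to depolarize, and calcium entry then switches on immediate early genes without new protein synthesis. Many of these encode transcription factors of the FOS, EGR and NR4A families, whose messengers are short lived, and which induce secreted and synaptic effector genes. Glia and blood cells answer later: astrocytes build up the intermediate filament GFAP, vessels and glia switch on interferon and acute phase genes, and neutrophils enter the lesion. Clock genes are set by the hour of the day and by stress hormones as well.

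Gene counts ranged from 1711134 to 2489888 per library at 3 h after MCAO (median 2209044) and from 1699600 to 2780229 at 12 h (median 1825050), and from 1716514 to 2657324 in the shams. Reads assigned to no gene made up 22.7, 21.9, 26.1, 22.8 and 22.7% of all counts in 3 h libraries A to E. In 12 h libraries A to E they made up 28.1, 23.6, 25.9, 24.2 and 30.6%. The median share of added ERCC spike-in RNA was 4.22% at 3 h and 5.09% at 12 h. The part of the unassigned reads in the changes was not tested. Levels are given as CPM (counts relative to library size, after TMM scaling), which for this 3′ protocol depends little on gene length. The biological coefficient of variation, estimated over all 11 groups of the series, was 24.9%. The 12 h libraries were not alike. Library A was low in inducible injury genes, and library E was far above the others in neutrophil genes. The summed level of 14 neutrophil markers was 14.1, 41.7, 199.8, 188 and 1872 CPM in 12 h libraries A to E and 15.1, 37.3, 57.9, 72.4 and 19.6 CPM in 3 h libraries A to E, against 4.91 to 12.1 CPM in sham at 3 h. The groups overlapped, and 12 h library A stood below every 3 h library. None of the 14 markers was at 0 in both groups.

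The tissue taken differed as well. The summed level of 11 striatal markers was 3078, 2974, 550.3, 618 and 1086 CPM in 3 h libraries A to E and 633, 600.4, 490.3, 1851 and 645 CPM in 12 h libraries A to E, and ranged from 585 to 2123 CPM in sham at 3 h and from 961 to 2909 CPM in sham at 12 h. So 3 h libraries A and B and 12 h library D held the most striatal RNA of their groups. In control the striatal sum ranged from 926 to 2359 CPM. Choroid plexus and ependymal markers summed to 509 CPM in control library A and to 17.98, 12.41 and 6.832 CPM in B to D. The 12 oligodendrocyte markers summed to 1773 to 4183 CPM at 3 h and 1035 to 2148 CPM at 12 h, with libraries A, B and E the highest at 3 h. In control they summed to 1930 to 3580 CPM. The 12 neuronal markers summed to 10260 to 11030 CPM at 3 h and 9070 to 11760 CPM at 12 h, and neurons were plainly present in both. The 5 erythroid genes counted, mostly hemoglobins of red blood cells, summed to 69.7, 149.5, 1416, 1304 and 799 CPM at 12 h and 296, 562, 429, 627 and 179.9 CPM at 3 h.

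**Figure D1:**
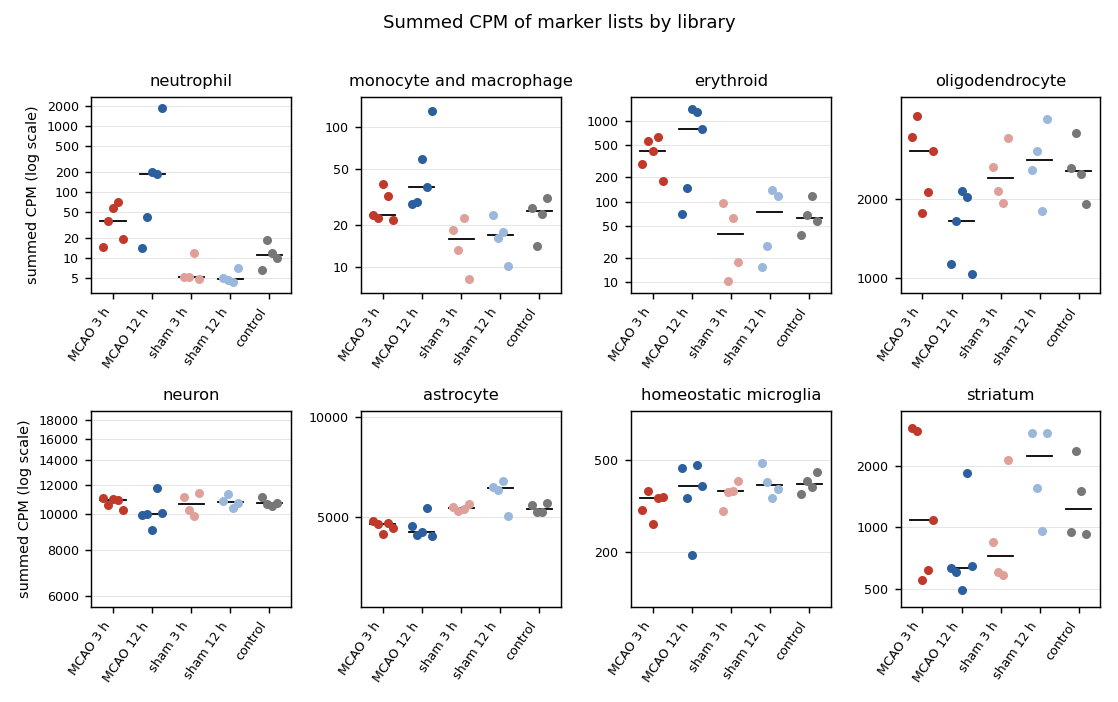
Summed CPM (log scale) of 8 marker lists in each library at 3 h and 12 h after MCAO, in sham and in control, with 1 point per library in the order A to E and a line at the group median. The neutrophil sum of 12 h library E (1872 CPM) lies far above every other library, and the striatal sum differs between libraries of the same group.

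From 3 h to 12 h after MCAO, 75 of 19970 genes passed the test in edgeR, which asked for an adjusted p under 0.01 and a log2 fold change beyond 0.58 in either direction. That is 0.376% of the genes tested. Of these, 53 fell (0.265%) and 22 rose (0.11%). Scaled to the ERCC spike-ins in place of TMM, 71 fell and 12 rose. The falls included immediate early and activity-induced genes such as Fosb, Egr4, Fos, Nptx2 and Bdnf and the clock output genes Ciart and Dbp. The rises included Gfap, the interferon-induced membrane proteins Ifitm1 and Ifitm3, and Prg4, Pdpn, Ccl6 and S100a9, along with Synpr and the transcripts 4930526A20Rik, Gm10039, Gm12892 and Gm15772. At an adjusted p under 0.05, 160 genes fell (0.801%) and 91 rose (0.456%). For 53 of the 75 genes all 12 h libraries lay on one side of all 3 h libraries. Over all genes, 1.33% had every 12 h library above and 1.19% every 12 h library below. The calls came from the same libraries, so little overlap follows from the call and is no separate evidence. The median log2 fold change over all genes was 0.04. Of the 19970 genes, 10753 had a positive and 9080 a negative log2 fold change. Genes of a list can move together through 1 library, so the counts of signs below are not independent.

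The number of calls rested on few libraries. It was 28, 30 and 35 without 3 h library A, B or E, 44 and 48 without 12 h library A or E, and 116 without 3 h library C. It was 22 without both 12 h libraries A and E, and 15 without 3 h libraries A and B and 12 h library D. All 75 genes kept their direction in each of these fits, and 24 of them passed in each of the 10 fits that left out 1 MCAO library. These fits reuse most of the libraries that gave the calls, so the kept direction is no separate evidence.

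From 3 h to 12 h in sham, 3 of 19970 genes passed (0.015%), and 931 had an unadjusted p under 0.05, against 2884 after MCAO. Of the 75 genes called after MCAO, 58 had the same sign in sham, which held for 46 of the 53 falls and 12 of the 22 rises. The share of all tested genes with the same sign in both was not computed, so these counts show nothing particular to the called genes. The test of the difference between the MCAO change and the sham change called 2 genes (0.01%), Synpr and Gm15446, and 1421 had an unadjusted p under 0.05. In Synpr and Gm15446 the low groups were MCAO at 3 h and sham at 12 h. Whether this limits sham as a check of the time effect was not tested. For no other gene was the change shown to differ from that in sham.

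**Figure D2:**
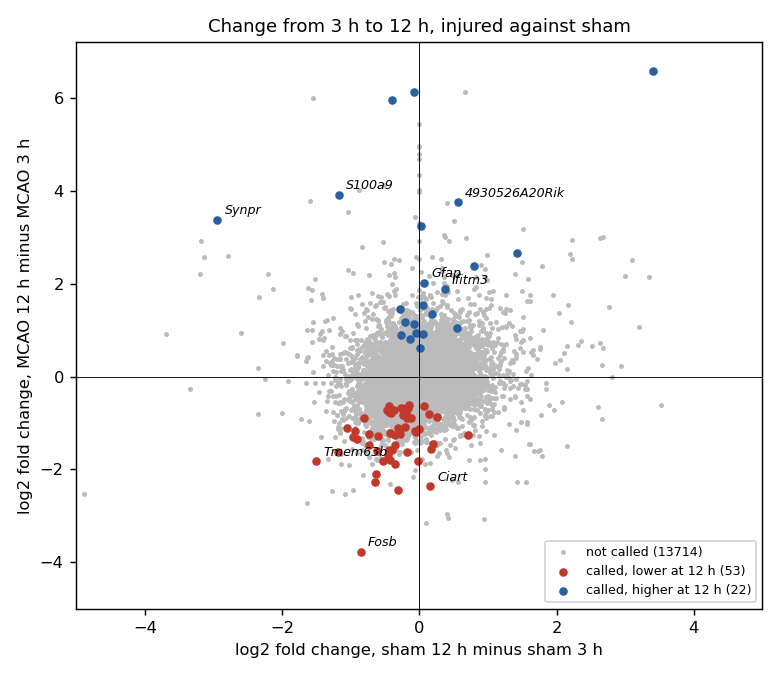
Log2 fold change from 3 h to 12 h after MCAO (vertical axis) against that in sham (horizontal axis) for the 13789 genes whose mean over the 10 MCAO libraries reached 2 CPM, 1 point per gene, with the 53 called falls in red and the 22 called rises in blue. Of the 53 falls, 46 also had a negative change in sham, and Synpr lies at 3.38 after MCAO and -2.95 in sham.

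Of 28 immediate early transcription factors, 5 fell, none rose, and 25 had a negative log2 fold change. Their median was -1.13, against -0.43 in sham. The 5 were Fosb, Egr4, Fos, Fosl2 and Nr4a3, and at an adjusted p under 0.05 the number was 11. Fosb, a subunit of the AP-1 factor that pairs with JUN proteins, showed the steepest fall of all called genes. It stood at 433, 186, 112, 70.2 and 176 CPM in 3 h libraries A to E and at 4.08, 19.4, 15.7, 19.4 and 13.7 CPM in 12 h libraries A to E. The groups did not overlap, and the lowest 3 h library was above the highest 12 h library. The log2 fold change was -3.78 ± 0.53 (SE), edgeR adjusted p = 1.6e-05. In sham Fosb ranged from 16.2 to 36.3 CPM at 3 h and from 4.47 to 24 CPM at 12 h. In control it ranged from 7.81 to 20.9 CPM, so the 12 h MCAO libraries were within or below the control range. The sham change was -0.86 ± 0.58 (SE), and the difference of both changes was -2.92 ± 0.78 (SE), edgeR adjusted p = 0.349.

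Fos, the founding member of the AP-1 family, stood at 184, 131, 49.5, 29.3 and 60.6 CPM at 3 h and 8.16, 7.76, 37, 28.2 and 26.2 CPM at 12 h. Here 3 h library D was below 12 h library C, so the groups overlapped. The log2 fold change was -2.1 ± 0.46 (SE), edgeR adjusted p = 0.00886, and the call was kept in 3 of the 10 fits that left out 1 MCAO library. Fosl2, a slower AP-1 subunit, stood at 239.9, 209, 124, 68.5 and 150.3 CPM at 3 h and 24.1, 26.2, 48, 40 and 87.5 CPM at 12 h. Only 3 h library D and 12 h library E crossed, and the log2 fold change was -1.82 ± 0.31 (SE), edgeR adjusted p = 0.00041.

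Egr4, a zinc finger factor of the EGR family, stood at 773, 329.6, 156, 103 and 251 CPM at 3 h and 56.7, 69.9, 40.2, 40 and 87.5 CPM at 12 h, with no overlap. The log2 fold change was -2.45 ± 0.38 (SE), edgeR adjusted p = 8.2e-05. Control libraries held 74.2 to 117 CPM, and 4 of 5 libraries at 12 h after MCAO lay below them. Egr1, its better known relative, stood at 699.8, 511, 476, 273 and 320.2 CPM at 3 h and 164, 200.4, 254, 207 and 344 CPM at 12 h, with a log2 fold change of -0.97 ± 0.25 (SE), edgeR adjusted p = 0.031, which did not pass. Nr4a3, an orphan nuclear receptor of the NUR77 family, stood at 88, 59.5, 44.9, 25.9 and 50.6 CPM at 3 h and 17.1, 11.7, 9.91, 17.6 and 20.2 CPM at 12 h. The groups did not overlap, and the log2 fold change was -1.80 ± 0.31 (SE), edgeR adjusted p = 0.00038. Npas4, a neuron-specific factor induced by calcium, had a larger log2 fold change of -3.05 ± 0.75 (SE) with an edgeR adjusted p of 0.0242 and was not called. Its 3 h libraries A to E held 366, 66.6, 44.9, 29.7 and 35.1 CPM, with library A far above the rest, and its 12 h libraries 5.56, 14.1, 18.3, 19.4 and 8.34 CPM. Atf3, induced by cell stress and axon injury, was low in both groups. It held 9.64, 12.8, 14.7, 7.32 and 4.55 CPM at 3 h and 0, 1.94, 21.4, 5.29 and 10.7 CPM at 12 h, a log2 fold change of -0.35 ± 0.68 (SE), edgeR adjusted p = 0.868, while sham and control libraries stayed at or below 1.71 CPM.

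The 3 h libraries with the highest levels also differed in the tissue they held. Libraries A, B and E, which were highest in Fos and Fosb, also held the most striatal RNA. The part of tissue composition in the fall was not tested. Without 3 h libraries A and B and 12 h library D, 1 of the 28 factors was called, Fosb, and the median was -0.60. With any 1 MCAO library left out, 4 to 7 were called, with medians from -1.24 to -0.87.

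Of 26 activity-induced effector genes, 5 fell, none rose, and the median was -1.02 against -0.14 in sham. These were Nptx2, Gadd45b, Bdnf, Per1 and Homer1. Bdnf, a secreted growth factor for neurons and synapses, stood at 347, 225, 122, 108 and 249 CPM at 3 h and 65.3, 70.4, 52.2, 77.6 and 79.2 CPM at 12 h, with no overlap. The log2 fold change was -1.60 ± 0.28 (SE), edgeR adjusted p = 0.00052. Control held 62.6 to 110.5 CPM, and 4 of the 5 libraries at 3 h lay above that range. Nptx2, a secreted pentraxin that gathers AMPA receptors at synapses, stood at 296, 308, 106, 97.4 and 240.1 CPM at 3 h and 35.2, 45.6, 93.9, 66.5 and 44.7 CPM at 12 h. The groups did not overlap but nearly met, at 3 h library D and 12 h library C, and the log2 fold change was -1.88 ± 0.37 (SE), edgeR adjusted p = 0.00405. Of the 10 fits that left out 1 MCAO library, Nptx2 and Gadd45b each passed in 4. Gadd45b, which links activity to DNA demethylation and stress kinases, had a log2 fold change of -1.70 ± 0.34 (SE), edgeR adjusted p = 0.00481, and 12 h library C (38.6 CPM) was above the lowest 3 h libraries (31.5 and 36.6 CPM). Homer1, a scaffold of metabotropic glutamate receptors with an activity-induced short form, stood at 798, 474, 509.6, 333 and 592 CPM at 3 h and 201, 215, 283, 244 and 222 CPM at 12 h, with no overlap and a log2 fold change of -1.22 ± 0.18 (SE), edgeR adjusted p = 3.6e-05. Arc, which trims AMPA receptors from synapses, had -1.78 ± 0.43 (SE) with an edgeR adjusted p of 0.0193 and was not called. Its 12 h library C held 242 CPM against 27.4 to 69.1 CPM in the others.

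Several large falls lay outside the lists. Sertad1, a cofactor of the cell cycle factor E2F, stood at 79.6, 74.6, 73, 42.2 and 77.9 CPM at 3 h and 19.3, 25.2, 23.5, 18.2 and 29.2 CPM at 12 h. The groups were far apart, and the log2 fold change was -1.59 ± 0.21 (SE), edgeR adjusted p = 5.5e-06. Grasp, a scaffold that binds the GRP1 family of exchange factors, fell by a log2 fold change of -1.58 ± 0.23 (SE), edgeR adjusted p = 4e-05, from a range of 124 to 239 CPM at 3 h to one of 40.7 to 96.5 CPM at 12 h. Bcor, a corepressor that works with BCL6 and a Polycomb complex, fell from a range of 52.9 to 112 CPM at 3 h to one of 11.5 to 36 CPM at 12 h, a log2 fold change of -1.81 ± 0.26 (SE), edgeR adjusted p = 2.6e-05. C2cd4b fell from a range of 7.32 to 24.7 CPM at 3 h to one of 1.18 to 5.34 CPM at 12 h, a log2 fold change of -2.27 ± 0.41 (SE), edgeR adjusted p = 0.00101. Elmo1, which activates the GTPase RAC with DOCK proteins during engulfment and migration, fell from a range of 48.7 to 96.3 CPM at 3 h to one of 8.82 to 40.3 CPM at 12 h, a log2 fold change of -1.64 ± 0.33 (SE), edgeR adjusted p = 0.00475. In each of these 5 genes the groups did not overlap, which was a condition for naming them. The call of Elmo1 was kept in 5 of the 10 fits that left out 1 MCAO library. Fosb, Grasp, Sertad1, Bcor, Homer1, Per1, Ubtf and Ciart passed in every fit that left out 1 MCAO library and also without 3 h libraries A and B and 12 h library D. Without those libraries every other called fall lost its call, such as those of Egr4, Bdnf, Dbp, Tsc22d3, Klf9, Cst3, Tmem63b and Baiap2.

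**Figure D3:**
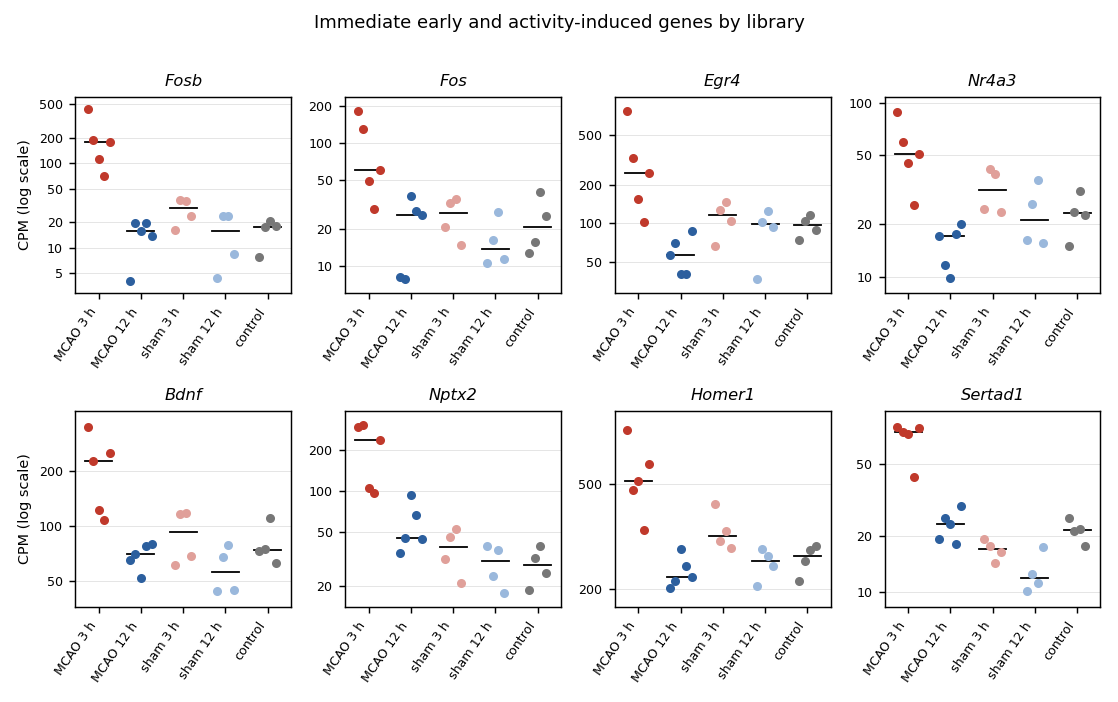
CPM (log scale) of 8 immediate early and activity-induced genes in each library, with 1 point per library in the order A to E and a line at the group median. In Fosb the 5 libraries at 3 h after MCAO (70.2 to 433 CPM) lie above all 12 h, sham and control libraries, and 3 h library D is lowest.

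The ERK feedback phosphatases and Sprouty genes, which are induced by the same kinase pathway and shut it down, had a median of -0.60, and none of 14 was called. Dusp6, the phosphatase of ERK, stood at 237, 159, 311, 109 and 134 CPM at 3 h and 66.4, 102, 114, 27.6 and 160.2 CPM at 12 h, a log2 fold change of -1.02 ± 0.33 (SE), edgeR adjusted p = 0.122. The 12 h libraries ranged widely and overlapped the 3 h libraries. Dusp14, Spred1 and Spry2 had log2 fold changes of -0.41, -0.22 and 0.07.

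The promoters of several immediate early genes are known to answer to CREB, which binds the cAMP response element and is switched on by calcium. A part of CREB in these falls was not tested. The windows of 250 bases before the start of Fosb, Egr4 and Nr4a3 are shown as examples, because these are the 3 immediate early transcription factors of the list that were called without overlap between the times. They come from RefSeq on GRCm38.p6, from chr7:19310046-19310295, minus strand for Fosb, chr6:85513590-85513839, minus strand for Egr4 and chr4:48045055-48045304, plus strand for Nr4a3, and read 5′ to 3′ on the gene's strand. Capitals mark TGACG, the core of the cAMP response element, on either strand.
Fosb: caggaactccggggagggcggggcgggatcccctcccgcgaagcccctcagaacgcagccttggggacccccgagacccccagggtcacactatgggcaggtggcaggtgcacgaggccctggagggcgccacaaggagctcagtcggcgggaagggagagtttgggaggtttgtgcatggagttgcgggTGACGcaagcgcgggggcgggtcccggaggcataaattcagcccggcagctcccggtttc
Egr4: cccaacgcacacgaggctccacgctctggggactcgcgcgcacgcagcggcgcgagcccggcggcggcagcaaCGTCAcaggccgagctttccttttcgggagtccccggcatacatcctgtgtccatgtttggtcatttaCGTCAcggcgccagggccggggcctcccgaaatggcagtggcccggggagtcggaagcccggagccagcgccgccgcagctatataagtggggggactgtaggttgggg
Nr4a3: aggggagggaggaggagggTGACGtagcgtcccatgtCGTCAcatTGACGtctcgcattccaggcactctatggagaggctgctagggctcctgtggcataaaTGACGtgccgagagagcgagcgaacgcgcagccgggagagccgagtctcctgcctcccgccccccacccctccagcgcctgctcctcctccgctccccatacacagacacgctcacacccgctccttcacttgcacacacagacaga
The core stood once in Fosb, 60 bases before the start, in Egr4 from 177 and 109 bases before it, and in Nr4a3 from 231, 213, 205 and 147 bases before it. Among the other falls described above, the windows of Fos, Homer1 and Per1 held the core too. Those of Fosl2, Bdnf, Gadd45b, Sertad1, Grasp, Bcor, C2cd4b and Elmo1 did not. Of the 47 falls with a window in the RefSeq table (of 53), 16 held the core, and of the 16 rises with one (of 22), 1 did. Of all 32841 windows, 17.8% held it. Called genes gave 1 window each, while all windows take in genes that were not tested and can hold more than 1 start per gene. The shares are therefore not like for like. The full element TGACGTCA was in none of the windows of called genes and in 1.55% of all windows. A match is a string of letters and no evidence of binding.

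Of 21 clock and clock output genes, 4 fell, none rose, and the median was -0.53 against -0.06 in sham. The 4 were Ciart, Per1, Dbp and Per2, all in the arm that CLOCK and BMAL1 drive through E-box elements. Ciart, a repressor of CLOCK and BMAL1, stood at 36.8, 21.7, 65, 37.9 and 23.7 CPM at 3 h and 1.85, 9.22, 10.9, 4.71 and 10.1 CPM at 12 h. The groups did not overlap, and the log2 fold change was -2.36 ± 0.40 (SE), edgeR adjusted p = 0.00037. Sham held 11.9, 9.21, 6.27 and 20.7 CPM at 3 h and 2.23, 9.38, 16.2 and 23.8 CPM at 12 h, a change of 0.16 ± 0.44 (SE), and the difference of both changes was -2.52 ± 0.59 (SE), edgeR adjusted p = 0.238. Dbp, an output factor that binds D-box elements, stood at 89.8, 92.1, 87.7, 68.5 and 77 CPM at 3 h and 19.6, 30.1, 39.1, 35.9 and 28.6 CPM at 12 h. All 12 h libraries lay below all 3 h libraries, and the log2 fold change was -1.44 ± 0.24 (SE), edgeR adjusted p = 0.00036. In sham Dbp held 45.5, 63.9, 40.3 and 98.1 CPM at 3 h and 49.1, 43.8, 75 and 113 CPM at 12 h, and in control 85.4 to 109 CPM. Its sham change was 0.20 ± 0.26 (SE), and the difference of both changes was -1.64 ± 0.35 (SE), edgeR adjusted p = 0.104.

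Per1, a core clock repressor that calcium and glucocorticoids also induce at once, stood at 171, 101, 133, 85.3 and 115 CPM at 3 h and 27.8, 51, 40.7, 68.2 and 31 CPM at 12 h. The log2 fold change was -1.47 ± 0.20 (SE), edgeR adjusted p = 1.6e-05. The groups did not overlap. Sham held 70.4 to 84.5 CPM at 3 h and 43.6 to 66.4 CPM at 12 h, a change of -0.35 ± 0.22 (SE), all below the 3 h MCAO libraries. Per2 fell from a range of 97.4 to 162 CPM at 3 h to one of 25.3 to 81.9 CPM at 12 h, a log2 fold change of -1.24 ± 0.26 (SE), edgeR adjusted p = 0.00545, without overlap, and passed in 4 of the 10 fits that left out 1 MCAO library. Arntl, which encodes BMAL1 and peaks in antiphase to these genes, stood at 9.04 to 15.5 CPM at 3 h and 7.15 to 17.7 CPM at 12 h, with a log2 fold change of -0.26 ± 0.35 (SE), edgeR adjusted p = 0.78. Its groups overlapped. The hour of collection is not given, so time after surgery and time of day cannot be told apart in either condition, and the sham libraries are the only values here that bear on it. With any 1 MCAO library left out, 3 to 5 of the 21 genes were called, and without both 12 h libraries A and E, 1 was.

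The windows of Ciart (chr3:95882229-95882478, minus strand) and Per1 (chr11:69098699-69098948, plus strand) are shown as examples that hold an E-box. That of Dbp held none. Capitals mark CACGTG in Ciart and, in Per1, CACGTG and the core TGACG.
Ciart: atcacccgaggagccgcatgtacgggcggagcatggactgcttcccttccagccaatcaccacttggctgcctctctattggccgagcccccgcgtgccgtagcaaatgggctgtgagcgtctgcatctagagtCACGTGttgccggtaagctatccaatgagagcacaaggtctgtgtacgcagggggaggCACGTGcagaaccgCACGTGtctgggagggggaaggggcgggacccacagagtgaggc
Per1: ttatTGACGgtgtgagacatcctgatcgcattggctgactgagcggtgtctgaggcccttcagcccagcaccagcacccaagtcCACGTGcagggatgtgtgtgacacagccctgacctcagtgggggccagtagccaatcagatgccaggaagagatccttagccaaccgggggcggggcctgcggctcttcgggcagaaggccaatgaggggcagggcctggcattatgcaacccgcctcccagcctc
Ciart held the E-box 3 times, from 116, 58 and 44 bases before the start. Per1 held it from 166 bases before the start, with the TGACG core from 246 bases before it. CACGTG stood in 6.02% of all 32841 windows, in 3 of the 47 falls and in 1 of the 16 rises. These shares are not like for like either.

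Of 20 glucocorticoid-responsive genes, 3 fell, none rose, and the median was -0.64 against -0.35 in sham. They were Per1, Tsc22d3 and Klf9. Tsc22d3, which encodes the anti-inflammatory protein GILZ, stood at 151, 121, 90.6, 107 and 122 CPM at 3 h and 31.5, 45.1, 72.5, 55.9 and 33.9 CPM at 12 h. The log2 fold change was -1.31 ± 0.23 (SE), edgeR adjusted p = 0.00052, with no overlap. Sham held 116 to 167 CPM at 3 h and 43.6 to 84.9 CPM at 12 h without overlap either (-0.97 ± 0.25, SE, not called), and control held 55.8 to 108 CPM. Klf9, a repressor that stress hormones and thyroid hormone induce, fell from a range of 1077 to 1650 CPM at 3 h to one of 466 to 789.7 CPM at 12 h, a log2 fold change of -1.10 ± 0.20 (SE), edgeR adjusted p = 0.00113. Its sham change was -0.32 ± 0.22 (SE). Cdkn1a, which encodes the cell cycle inhibitor p21, and Nfkbia were not called, with log2 fold changes of -0.69 and 0.27.

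**Figure D4:**
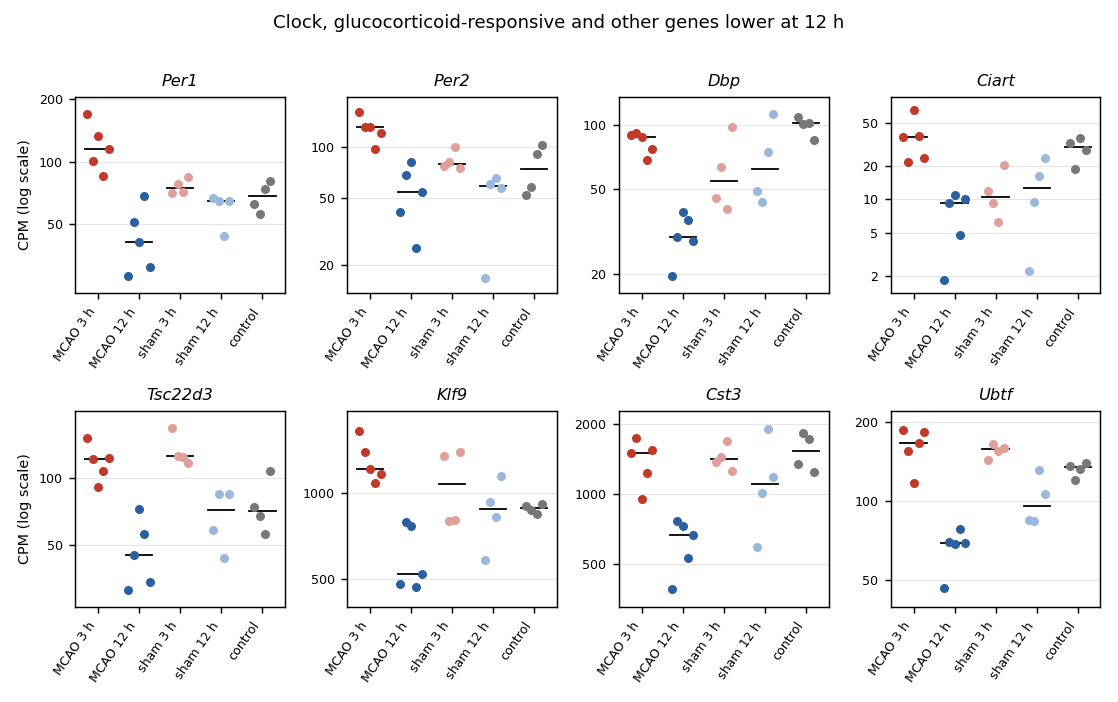
CPM (log scale) of clock genes, glucocorticoid-responsive genes, Cst3 and Ubtf in each library, with 1 point per library in the order A to E and a line at the group median. The 5 MCAO libraries at 12 h lie below the 5 at 3 h in all 8 genes, and for Tsc22d3 the sham libraries at 12 h also lie below those at 3 h.

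Other falls outside the response lists included those of Ubtf, Cst3, Tmem63b and Baiap2, and further ones are not described here. Ubtf, which drives transcription of ribosomal RNA genes by RNA polymerase I, had the smallest adjusted p of all genes. It stood at 186, 154, 117, 166 and 182 CPM at 3 h and 46.7, 69.9, 68.8, 78.2 and 69.1 CPM at 12 h, far apart, with a log2 fold change of -1.28 ± 0.15 (SE), edgeR adjusted p = 2.4e-07. In sham it held 144 to 164 CPM at 3 h and 84 to 131 CPM at 12 h, a change of -0.61 ± 0.16 (SE) that did not pass. Cst3, the secreted protease inhibitor cystatin C that astrocytes and microglia make in quantity, stood at 1504, 1739, 950.1, 1236 and 1546 CPM at 3 h and 389, 765, 726, 533 and 665 CPM at 12 h, with no overlap and a log2 fold change of -1.18 ± 0.22 (SE), edgeR adjusted p = 0.00198. Tmem63b, a stretch-activated channel, stood at 154, 176, 99.4, 135 and 203 CPM at 3 h and 35.6, 54.4, 36, 28.2 and 63.7 CPM at 12 h, a log2 fold change of -1.82 ± 0.28 (SE), edgeR adjusted p = 7.8e-05. In sham it held 179.5 to 275 CPM at 3 h and 38 to 116 CPM at 12 h (-1.5 ± 0.30, SE, edgeR adjusted p = 0.0397). The difference of both changes was -0.32 ± 0.40 (SE), edgeR adjusted p = 0.914. Baiap2, a scaffold of the postsynaptic density, fell from a range of 556 to 978 CPM at 3 h to one of 241 to 399.5 CPM at 12 h, a log2 fold change of -1.23 ± 0.19 (SE), edgeR adjusted p = 7.8e-05.

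Of 12 oligodendrocyte markers 11 had negative log2 fold changes, with a median of -0.46 against 0.37 in sham, and none was called. Their summed level was highest in 3 h libraries A, B and E, those with the most striatal RNA, and the part of tissue composition in this was not tested. All 11 striatal markers tested were lower at 12 h on average, with a median of -0.97 against 1.08 in sham, and none was called.

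Among the rises, Gfap, the intermediate filament of reactive astrocytes, was the only one of 22 reactive astrocyte genes called, and the list had a median of 0.52 against -0.05 in sham. It stood at 65.1, 88.3, 66.3, 129 and 88.8 CPM at 3 h and 192, 438, 422, 468 and 262 CPM at 12 h. Every 12 h library was above every 3 h library, and the log2 fold change was 2.02 ± 0.34 (SE), edgeR adjusted p = 0.00036. Sham held 40.7 to 77.1 CPM at 3 h and 22.9 to 100.5 CPM at 12 h, and control 39.9 to 71.7 CPM. The sham change was 0.06 ± 0.39 (SE), and the difference of both changes was 1.96 ± 0.52 (SE), edgeR adjusted p = 0.348. The call was kept in all 10 fits that left out 1 MCAO library and ended without 3 h libraries A and B and 12 h library D. Vim, another intermediate filament of glia and vessels, stood at 50.03, 55.2, 59.98, 40.9 and 55.6 CPM at 3 h and 33.7, 112, 106, 48.2 and 108 CPM at 12 h. In 12 h libraries A and D it was as low as at 3 h, and the log2 fold change was 0.63 ± 0.38 (SE), edgeR adjusted p = 0.451. Sox9 and Synm had log2 fold changes of 0.19 and -0.27. The 12 astrocyte identity markers had a median of -0.02 and none was called.

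Of 21 interferon-stimulated genes all had a positive log2 fold change, 1 rose, and the median was 1.31 against 0.16 in sham and 0.04 over all genes. The called gene was Ifitm3, a membrane protein that blocks entry of viruses into cells. It stood at 39.8, 55.2, 48.7, 43.1 and 41 CPM at 3 h and 121, 120.4, 210.2, 144 and 246 CPM at 12 h. The groups did not overlap, and the log2 fold change was 1.88 ± 0.28 (SE), edgeR adjusted p = 4.3e-05. Its neighbour Ifitm1, of the same family, rose from 3.01, 0.472, 1.26, 2.58 and 0.911 CPM to 13, 12.1, 13, 9.41 and 31.6 CPM, a log2 fold change of 3.24 ± 0.63 (SE), edgeR adjusted p = 0.00296. Of its 3 h libraries, 3 lie under 1.43 CPM, the mean value of 3 counts, so the size of this change is imprecise, and the call ended without 12 h library E or 3 h library B or E. Both genes lie on chromosome 7 of GRCm38, Ifitm1 at chr7:140967221-140969825, plus strand and Ifitm3 at chr7:141009586-141010770, minus strand, and members of the family share sequence, so their counts may not be fully separate. Ifitm1 is not on the list. Rsad2, which encodes the antiviral enzyme viperin, had a log2 fold change of 2.54 ± 0.63 (SE, edgeR adjusted p = 0.0251, not called). Its 12 h library E held 219 CPM against 3.34 to 17.2 CPM in the other 4, which lie in the 3 h range of 3.01 to 22.2 CPM. Stat2 and Irf9, subunits of the factor that type I interferon activates, had log2 fold changes of 0.78 ± 0.22 (SE), edgeR adjusted p = 0.0673 and 0.60 ± 0.28 (SE), edgeR adjusted p = 0.302. Leaving out 1 MCAO library gave 1 or 2 calls and medians from 0.60 (without 12 h library E) to 1.49.

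Other rises came from varied genes. Pdpn, the glycoprotein podoplanin of reactive astrocytes and lymphatic vessels, stood at 22.9, 23.6, 34.8, 35.8 and 21.4 CPM at 3 h and 42.6, 44.6, 115, 85.3 and 119 CPM at 12 h. There was no overlap, and the log2 fold change was 1.54 ± 0.30 (SE), edgeR adjusted p = 0.0025. S100a6, a calcium-binding protein of glia and fibroblasts, rose from a range of 35.4 to 47 CPM at 3 h to one of 59.7 to 154 CPM at 12 h, a log2 fold change of 1.18 ± 0.25 (SE), edgeR adjusted p = 0.00785, but the call was kept in only 2 of the 10 fits that left out 1 MCAO library. Apod, a lipid carrier of glia, stood at 109, 111, 105, 109.9 and 76.5 CPM at 3 h and 154, 163, 225, 254 and 257 CPM at 12 h, a log2 fold change of 1.04 ± 0.21 (SE), edgeR adjusted p = 0.00418. Its sham libraries also stood higher at 12 h (97.1 to 164 CPM) than at 3 h (75.3 to 107 CPM), with overlap. Slc1a4, a transporter of alanine, serine and cysteine, rose from a range of 39.2 to 56.4 CPM at 3 h to one of 75.6 to 112 CPM at 12 h, a log2 fold change of 0.92 ± 0.16 (SE), edgeR adjusted p = 0.00071, and passed in all 10 fits that left out 1 MCAO library. It did not pass with only the compared groups in the fit, with spike-in scaling or without 3 h libraries A and B and 12 h library D. Apod and Pdpn each passed in 5 of the 10 fits, and S100a6 and Apod did not pass with spike-in scaling. Prg4, the lubricating protein lubricin, stood at 8.44, 11.3, 42.4, 12.5 and 13.2 CPM at 3 h and 42.3, 67.5, 114, 47.6 and 194 CPM at 12 h. The groups met at 3 h library C and 12 h library A, and the log2 fold change was 2.37 ± 0.44 (SE), edgeR adjusted p = 0.00125.

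Pafah2, an enzyme that cleaves platelet-activating factor and oxidized lipids, Txnrd3, a thioredoxin reductase, and Fbxw17, an F-box protein, rose by log2 fold changes of 1.46 ± 0.30, 1.35 ± 0.29 and 1.14 ± 0.24 (SE), with edgeR adjusted p of 0.00545, 0.00779 and 0.00718. None overlapped between the times, which was a condition for naming them. Of the 10 fits that left out 1 MCAO library, Pafah2 passed in 5 and Txnrd3 and Fbxw17 in 2 each, and none of the 3 passed with spike-in scaling or with only the compared groups in the fit. Txnrd3 held 3.31 to 10.3 CPM at 3 h, 11.7 to 18.8 CPM at 12 h and 5.69 to 9.02 CPM in control. The uncharacterized transcript 4930526A20Rik stood at 3.01, 1.42, 2.1, 2.15 and 1.82 CPM at 3 h and 23, 28.6, 22.4, 48.8 and 22 CPM at 12 h, a log2 fold change of 3.76 ± 0.61 (SE), edgeR adjusted p = 0.0002. In control libraries A to D it held 18.4, 0.562, 21.4 and 1.14 CPM, so A and C were near the 12 h level and B and D near the 3 h level, with no treatment between them. The predicted genes Gm10039, Gm12892 and Gm15772 were called as rises, but 12 h libraries A, C and E held nearly all of their counts. The same libraries had the largest shares of reads assigned to no gene at 12 h, and a link was not tested. Gm10039 stood at 38.9, 0.485, 24, 0.588 and 42.3 CPM at 12 h and 0.603, 0, 0, 0.431 and 0.456 CPM at 3 h. Gm12892 stood at 16.7, 0, 27.1, 1.76 and 41.1 CPM and Gm15772 at 35.6, 0, 10.9, 0 and 27.4 CPM at 12 h, and neither of these exceeded 0.472 CPM at 3 h.

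**Figure D5:**
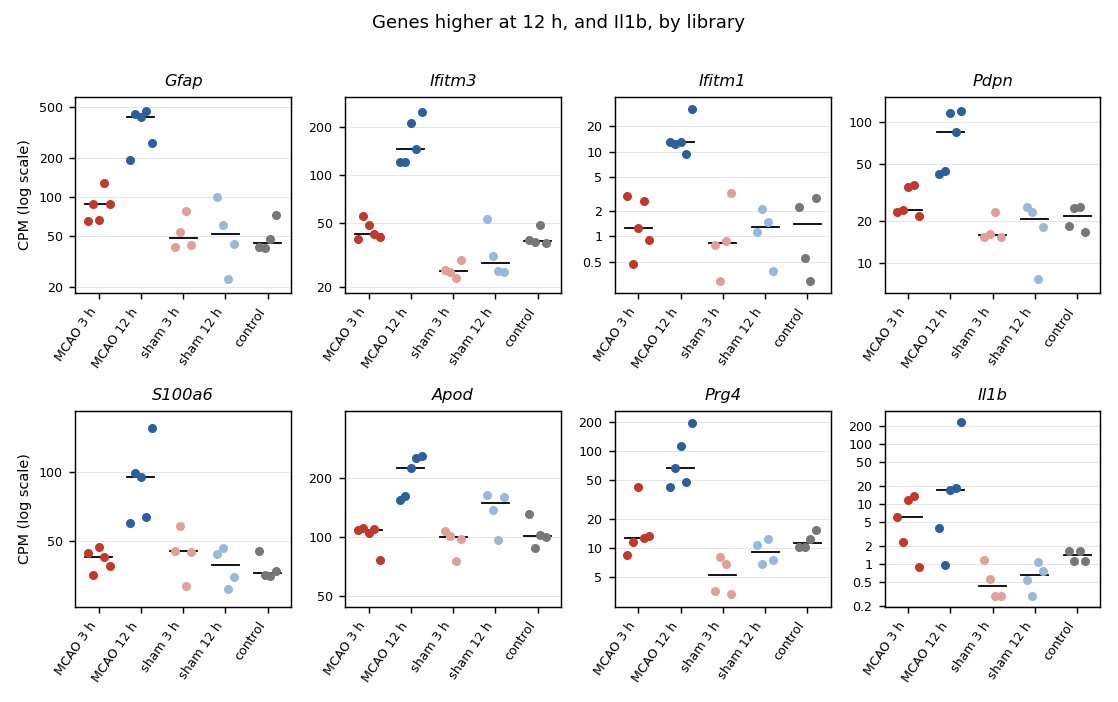
CPM (log scale) of 7 genes called as higher at 12 h and of Il1b, which was not called, in each library, with 1 point per library in the order A to E and a line at the group median. Values under 0.3 CPM are drawn at 0.3. In Gfap and Ifitm3 all 12 h MCAO libraries lie above all others, and in Il1b library E (233 CPM) stands alone.

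Inflammatory genes stood high in some 12 h libraries and not in others. Of 26 cytokines and chemokines, 21 had positive log2 fold changes and the median was 0.96, against 0.00 in sham, and none was called. The median was 0.23 without 12 h library E and 0.49 without 12 h library C. Il1b, the cytokine interleukin 1 beta, stood at 6.03, 2.36, 11.7, 13.8 and 0.911 CPM at 3 h and 4.08, 0.971, 17.2, 18.8 and 233 CPM at 12 h. Library E was high and libraries A and B were within the 3 h range, and a log2 fold change of 2.93 ± 0.83 (SE), edgeR adjusted p = 0.0617 did not pass. Cxcl2, which recruits neutrophils, held 5.42, 9.45, 6.29, 15.1 and 0.911 CPM at 3 h and 0, 2.91, 29.2, 12.9 and 366 CPM at 12 h, again with E apart, and a log2 fold change of 3.43 ± 0.98 (SE), edgeR adjusted p = 0.0624. Ccl2, Ccl3 and Ccl4, which recruit monocytes and other leukocytes, were already present at 3 h and had log2 fold changes of 0.10 ± 0.80, 0.97 ± 0.81 and 0.97 ± 0.76 (SE). For Ccl3 the libraries held 6.63, 14.2, 7.55, 12.9 and 2.28 CPM at 3 h and 0, 2.43, 15.1, 11.2 and 59 CPM at 12 h, where no sham library exceeded 0.558 CPM. Tnf had a log2 fold change of 2.1 ± 1.05 (SE), edgeR adjusted p = 0.352, and Il6 was at or below 1.19 CPM in every MCAO library. Cx3cl1, the neuronal chemokine that microglia sense, went the other way, from a range of 558 to 843 CPM at 3 h to one of 179 to 508 CPM at 12 h without overlap, a log2 fold change of -0.93 ± 0.22 (SE), edgeR adjusted p = 0.0179, which did not pass.

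One chemokine outside the lists rose: Ccl6, made by myeloid cells, stood at 3.62, 4.72, 2.94, 6.89 and 4.1 CPM at 3 h and 6.67, 17, 33.4, 31.8 and 57.2 CPM at 12 h, a log2 fold change of 2.67 ± 0.56 (SE), edgeR adjusted p = 0.00625, kept in 3 of the 10 fits that left out 1 MCAO library. Of 14 neutrophil markers all had positive log2 fold changes, with a median of 2.16, and 1 was called. It was S100a9, which forms the calcium-binding complex calprotectin with S100A8, at 2.41, 12.8, 21.8, 25 and 5.92 CPM at 3 h and 3.71, 8.25, 77.2, 68.2 and 903 CPM at 12 h. The groups overlapped, libraries A and B at 12 h were as low as at 3 h, and the log2 fold change was 3.92 ± 0.85 (SE), edgeR adjusted p = 0.0079. The call was kept in 4 of the 10 fits that left out 1 MCAO library. Without 12 h library E no neutrophil marker was called and the median was 1.14. Of 12 monocyte and macrophage markers 10 were positive, with a median of 1.48 (0.68 without 12 h library E) and none called.

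Of 22 NF-kB feedback genes none was called. The median of 0.22 turned to -0.16 without 12 h library E and came to 0.00 without C. Nfkbia, the inhibitor of NF-kB, was at 122, 188, 264, 171 and 559.8 CPM at 12 h and 184 to 235 CPM at 3 h, highest in library E. Of 22 genes of IL-6 family signaling and the acute phase none was called and 20 were positive (median 0.61). Timp1, an inhibitor of matrix metalloproteinases, missed the threshold by little, with 9.04, 11.8, 25.6, 8.62 and 3.19 CPM at 3 h, 21.1, 57.8, 78.8, 53.5 and 103 CPM at 12 h and a log2 fold change of 2.40 ± 0.53 (SE), edgeR adjusted p = 0.0104. Socs3, the feedback inhibitor of STAT3, held 19.9, 35, 47, 20.2 and 15.9 CPM at 3 h and 0.742, 25.7, 79.3, 3.53 and 57.8 CPM at 12 h, where libraries A and D were below all 3 h libraries and C and E above them. Its log2 fold change was 0.25 ± 0.56 (SE), edgeR adjusted p = 0.885. Lcn2, the iron-binding protein lipocalin 2, stood at 2.28 to 10.9 CPM at 3 h and 4.45 to 35.1 CPM at 12 h, with a log2 fold change of 1.38 ± 0.67 (SE), edgeR adjusted p = 0.329. The 26 genes of the plasminogen system, proteases and matrix had a median of 0.55 and 1 fall, Timp3, an inhibitor bound to matrix, from a range of 185 to 239 CPM at 3 h to one of 116 to 148 CPM at 12 h (log2 fold change -0.68 ± 0.14 (SE), edgeR adjusted p = 0.00405).

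Of 21 genes of reactive and phagocytic microglia none was called and 17 were positive, with a median of 0.67. Apoe, the lipid carrier of glia, stood at 2210, 2314, 1589, 2254 and 2243 CPM at 3 h and 2186, 1766, 1307, 2533 and 1419 CPM at 12 h, a log2 fold change of -0.20 ± 0.23 (SE), edgeR adjusted p = 0.727. Trem2, a lipid receptor of microglia, stood at 15.7, 6.14, 5.45, 7.75 and 8.65 CPM at 3 h and 16.3, 3.88, 6.26, 12.3 and 2.98 CPM at 12 h, a log2 fold change of 0.01 ± 0.47 (SE), edgeR adjusted p = 1. The groups overlapped in each. Of 18 complement and Fc receptor genes 17 were positive and none was called (median 0.95). C1qa, a chain of the first complement component, held 45.2 to 55.5 CPM at 3 h and 62.1 to 150.0 CPM at 12 h without overlap, with a log2 fold change of 0.77 ± 0.36 (SE), edgeR adjusted p = 0.311, while C1qc had -0.17 ± 0.33 (SE), edgeR adjusted p = 0.864. The 11 homeostatic microglia markers had a median of -0.19.

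Among the genes of cell stress and hypoxia, Ndrg1 alone passed the test. Of 20 heat shock proteins and co-chaperones none was called. The median of 0.30 turned to -0.03 without 12 h library C, where 2 members were called lower. Hspa1a, the inducible HSP70, held 108, 275, 204, 417 and 89.7 CPM at 3 h and 9.64, 32.5, 723, 64.1 and 52.4 CPM at 12 h, against 6.54 to 19.6 CPM and 6.14 to 9.23 CPM in sham. At 12 h library C stood above every 3 h library and the other 4 below every one, and the log2 fold change was -0.32 ± 0.58 (SE), edgeR adjusted p = 0.857. Hsp90aa1, the inducible HSP90, had 0.60 ± 0.15 (SE), edgeR adjusted p = 0.0234, not called, at 648 to 1173 CPM and 844 to 1531 CPM. Hmox1, the heme-degrading enzyme and a target of NRF2, held 6.63, 5.2, 13, 12.9 and 1.37 CPM at 3 h and 4.45, 17, 79.3, 21.8 and 17.9 CPM at 12 h, a log2 fold change of 1.81 ± 0.65 (SE), edgeR adjusted p = 0.165. None of 19 NRF2 targets was called (median 0.15, and 0.01 without 12 h library C). Of 7 metallothioneins and zinc transporters none was called, and Mt1 stood at 779 to 1330 CPM and 1156 to 2014 CPM, with a log2 fold change of 0.67 ± 0.17 (SE), edgeR adjusted p = 0.0321. Of 26 hypoxia-inducible factor targets 1 fell, Ndrg1, from a range of 74.5 to 94 CPM at 3 h to one of 38.9 to 54.8 CPM at 12 h (log2 fold change -0.80 ± 0.16 (SE), edgeR adjusted p = 0.00544, kept in 5 of the 10 fits that left out 1 MCAO library), and the median was -0.13. Ldha and Slc2a3, of glycolysis and glucose uptake, had log2 fold changes of 0.13 and -0.61.

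The remaining lists held no called gene. Their medians were 0.01 over 24 genes of the integrated stress and unfolded protein responses, 0.15 over 16 p53 targets, 0.37 over 23 genes of cell death and -0.11 over 22 genes of neuronal injury. They were 0.10 over 19 barrier genes, -0.13 over 21 cholesterol synthesis genes and 0.57 over 23 cell cycle genes, the last falling to 0.09 without 12 h library B and 0.30 without D. Without 12 h library C the p53 and barrier medians turned to -0.08 and -0.04, and that of the stress responses ranged from -0.07 to 0.05 with 1 library left out. Neuronal lists had medians of -0.13 (24 receptors), -0.16 (24 channels) and -0.16 (24 synaptic genes). Hspa5, the chaperone BiP of the endoplasmic reticulum, had a log2 fold change of 0.03 and Atf4 of 0.04. Hrk, a neuronal activator of cell death, had 0.53 ± 0.34 (SE), edgeR adjusted p = 0.487. Gria2, an AMPA receptor subunit, stood at 821 to 950.3 CPM at 3 h and 724 to 821 CPM at 12 h, a log2 fold change of -0.19 ± 0.11 (SE), edgeR adjusted p = 0.418, and Camk2a and Syt1 had 0.06 and 0.02.

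Other abundant members of the lists were not called either. Mt2, a metallothionein that binds zinc, held 498 to 820.4 CPM at 3 h and 379 to 1538 CPM at 12 h, a log2 fold change of 0.58 ± 0.25 (SE), edgeR adjusted p = 0.264. Stat3, the factor through which IL-6 family cytokines act, had 0.50 ± 0.21 (SE), edgeR adjusted p = 0.235, and Cd14, a coreceptor for bacterial lipid on myeloid cells, had 1.78 ± 0.66 (SE), edgeR adjusted p = 0.182. Slc2a1, the glucose transporter of the barrier, had -0.51 ± 0.27 (SE), edgeR adjusted p = 0.397. Sod2, the mitochondrial superoxide dismutase, had -0.29 ± 0.20 (SE), edgeR adjusted p = 0.525. The lysosomal proteases Ctsb and Ctsd had log2 fold changes of -0.08 and 0.20, and the growth cone proteins Gap43 and Stmn2 of 0.00 and 0.08.

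Markers of cell types and regions gave no called gene other than S100a9. Medians were -0.10 over 12 neuronal, 0.08 over 10 oligodendrocyte precursor, 0.41 over 12 endothelial, -0.40 over 10 pericyte and smooth muscle and 0.74 over 10 fibroblast markers. For the 4 lymphocyte and 5 erythroid markers tested they were -0.34 and 0.67. Of the 4 lymphocyte markers, 2 had no count in any MCAO library of either time. The region medians were 0.72 over 11 choroid plexus and ependymal, -0.21 over 10 thalamic, 0.28 over 10 hippocampal and 0.54 over 8 hypothalamic and pituitary markers. Without 12 h library A the hippocampal median turned to -0.14, and those of choroid plexus and of hypothalamus came to 0.15 and 0.07.

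Synpr, a membrane protein of synaptic vesicles (chr14:13284780-13616340, plus strand on GRCm38), moved in opposite directions after MCAO and in sham. It stood at 3.01, 2.83, 4.61, 3.02 and 8.2 CPM in MCAO at 3 h and 82, 48.5, 24.5, 24.1 and 50.02 CPM in MCAO at 12 h, a log2 fold change of 3.38 ± 0.44 (SE), edgeR adjusted p = 5.5e-06. In sham it fell, from 44.7, 52.4, 46.2 and 73 CPM at 3 h to 5.03, 4.17, 13.3 and 4.28 CPM at 12 h, a change of -2.95 ± 0.46 (SE, edgeR adjusted p = 0.00095), which did not pass without sham 12 h library A, B or D. The 2 low groups were MCAO at 3 h and sham at 12 h, and none of the 9 libraries of MCAO at 12 h and sham at 3 h or of the 4 controls fell into their range. The difference of both changes was 6.33 ± 0.64 (SE), edgeR adjusted p = 5e-09. Control held 52.4 to 118 CPM, and no MCAO library at 12 h stood above that range. Over the 11 groups of the series, every library outside MCAO 3 h and sham 12 h held at least 13.7 CPM. Gm15446, a predicted zinc finger gene (chr5:109923400-109943936, plus strand), had the same 2 groups low: it was counted in none of the sham libraries at 12 h, ranged from 0 to 1.82 CPM in MCAO at 3 h, and held 1.04 to 2.98 CPM in MCAO at 12 h and 2.24 to 9.27 CPM in sham at 3 h. Why these libraries differ was not tested, nor whether it bears on the sham comparisons of other genes. Gh, growth hormone of the pituitary, was the third gene called in sham, from 1 library alone, sham 3 h C, with 376 CPM where the other 7 held 0.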

How the data were processed

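The deposited tables hold raw gene counts per library. The authors prepared 3′ mRNA libraries (QuantSeq FWD) from RNA with added ERCC spike-ins, trimmed the reads, removed ribosomal reads, aligned them with STAR 2.5.2b to GRCm38 and counted genes of the Gencode vM8 annotation with HTSeq in union mode. Whether counting used strand is not given in the sources used here, so overlapping, antisense and near-identical genes are uncertain. Such counts come from the 3′ end alone, and CPM values are not divided by length.

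Spike-ins and summary lines were left out. Genes with more than 10 counts over the 48 libraries (19970 of 46983) entered edgeR 4.0.16 (R 4.3.3) with TMM scaling and its quasi-likelihood test, fitted over all 11 groups (37 residual degrees of freedom). Calls needed an adjusted p (Benjamini-Hochberg) under 0.01 and a log2 fold change beyond 0.58 in either direction. Sham at 12 h against 3 h and the difference of both changes came from the same fit. CPM is TMM-scaled, and SE is that of the log2 fold change.

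The genes and gene lists were chosen with earlier results of these data known. Named genes came from the 12 largest called rises and the 12 largest called falls with a mean of at least 2 CPM and no overlap between groups, up to 4 genes of each response list (called members first, then the most abundant), the genes called in sham or for the difference, and 20 stroke and clock genes. Homer1, Baiap2, Cst3, Ubtf, Prg4, Ccl6, S100a9, Npas4, Arc, Gm10039, Gm12892, Gm15772 and Gm15446 were named after their values were seen. On data simulated from these libraries, over 19970 genes, the test called 60 of 100 genes changed by 1 on the log2 scale. It called 87 of 100 changed by 1.5, and 1 of 19770 unchanged. The changed genes were drawn from well expressed genes alone, so these shares do not hold for genes of low count. Each gene was drawn independently, without the differences in tissue between libraries, so their effect on false calls was not tested. Alternatives were DESeq2 1.42.0, its size factors, other filters, spike-in scaling, fewer groups, a replicate block and leaving out libraries. Promoter windows are the 250 bases before each RefSeq gene start.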

Additional observations from a re-analysis of the deposited data

Results flagged for a closer look

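In 12 gene and group pairs, 1 library stood far from the others of their group by Dixon's test, and 2 genes differed between MCAO and sham. Of 100 groups of values tested, chance flags about 1 in 20. At 12 h after MCAO, library E was far above the other 4 in Il1b (232.9 CPM), Ccl3 (58.96 CPM), Ifitm1 (31.56 CPM) and Tnf (15.48 CPM). Library C of the same group was far above the others in Hspa1a (722.9 CPM) and Hmox1 (79.28 CPM), and library D in 4930526A20Rik (48.82 CPM). At 3 h, library E was low in Apod (76.53 CPM), library C low in Apoe (1589 CPM), and library D low in Sertad1 (42.22 CPM) and high in Txnrd3 (10.34 CPM). In sham at 3 h, library C alone held Gh (375.5 CPM). The change from 3 h to 12 h after MCAO minus that in sham was 6.33 on the log2 scale for Synpr and 8.268 for Gm15446, by edgeR's test of the difference. For Gm15446 the sham libraries at 12 h held no count, so the size of the difference depends on the fit's prior count.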

How the results depend on the processing

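The genes called after MCAO kept their direction under every alternative in which they were tested (72 of the 75 with filterByExpr, all 75 in the others). The alternatives reuse the libraries that gave the calls, so this is no separate evidence. The number of calls moved. At an adjusted p under 0.05 it was 251 (91 higher, 160 lower), with DESeq2 191 (55 higher, 136 lower), with no filter on low counts 169 (57 higher, 112 lower) and with only the compared groups in the fit 20 (5 higher, 15 lower). Spike-in scaling gave 12 higher and 71 lower, and moved the median of all genes from 0.04 to -0.08. Leaving out 1 MCAO library gave 28 to 116 calls, 8 to 31 higher and 19 to 85 lower. Other choices were made after seeing the data: without 12 h libraries A and E there were 22 calls (7 higher, 15 lower), and without 3 h libraries A and B and 12 h library D there were 15 (4 higher, 11 lower). In sham the 3 calls became 5 with DESeq2, 5 with no filter, 0 with only the compared groups, and 0 to 4 with 1 library left out. The 2 calls of the difference became 5 with no filter, 1 with only the compared groups, 1 without 12 h libraries A and E, and 2 to 5 with 1 library left out. Same-lettered libraries correlated between -0.0815 and 0.3 after MCAO and between -0.13 and 0.364 in sham. Libraries of different letters were not compared, so whether the letters pair libraries was not settled. A replicate block gave 90 calls (27 higher, 63 lower). The causes of these shifts were not tested. At these depths a count of 3 is about 1.43 CPM at 3 h, so fold changes of genes near that level are imprecise.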
